A study of Mus musculus with 2 samples.

Results

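Cdh1, Cdh2, Epcam, Esrp1, Vim, Fn1, Zeb1, Zeb2, Snai1 and Snai2 are the standard genes by which an epithelial or a mesenchymal cell state is read, and they were taken by symbol from the deposited read count table. All 10 were present among the 24061 genes of that table, each on a single row, and all 10 had the 20 counts summed over both libraries that were required for a ratio. The table holds 2 libraries of C57BL/6 mouse embryonic stem cells, and both cultures were kept with leukaemia inhibitory factor on a feeder layer of mouse embryonic fibroblasts. The library labelled mES-control came from unmodified cells at passages 17 to 23, as far as the series title and labels say. The library labelled mES-Pc4-OE came from cells at passages 24 to 37 that carried a Venus-marked lentivirus for overexpression of Pc4, the transcriptional coactivator encoded by Sub1. Colonies were picked by their fluorescence to make 3 such lines, but which of them gave the RNA, and whether the feeders were taken off beforehand, is not stated. Passage and group cannot be told apart.

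Epithelial cells hold together through E-cadherin, while mesenchymal cells are motile, carry vimentin filaments and lay down fibronectin. In the change from the epithelial to the mesenchymal state, the zinc-finger repressors of the SNAIL and ZEB families bind E-box sequences and silence E-cadherin and other epithelial genes. Mouse embryonic stem cells grow as compact E-cadherin-positive colonies, and the fibroblasts they are grown on are mesenchymal. In RNA from a bulk culture, fewer cells of a type and less RNA per cell cannot be told apart.

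Sub1 itself had 5522 counts in the control-labelled library and 2432 in the one labelled Pc4-OE, which is 530.3 and 235.0 CPM (counts scaled to a common library size). The gene named as overexpressed was thus 2.26-fold lower where the label says it is overexpressed, so the libraries are named by label and all directions refer to those labels. The libraries held 10571463 and 10194783 counts. With 1 library per group there is no spread between cultures, no p-value is given, and each interval is the 95% exact interval of the counts (Clopper-Pearson), which covers counting error only. Embryonic fibroblast markers (21 genes) had a median log2 ratio of 1.29 and their summed level went from 4865 to 12592 CPM. Macrophage markers (16 genes) had a median of 2.20, and their sum went from 227.3 to 629.6 CPM. The pluripotent cell markers (10 genes, all with counts in both libraries) had a median of -0.13, with sums of 6147 and 4876 CPM. They were mixed, and 4 of the 10 had a ratio above 1. Pou5f1, which encodes OCT4, was at 1092 and 571.4 CPM, Nanog at 427.5 and 506.1 CPM, and Sox2 at 461.0 and 456.1 CPM. No marker of these 3 lists was at 0 in either library.

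E-box sequences of the kind SNAIL and ZEB proteins bind, CAGGTG or its reverse complement CACCTG, were looked for in the 250 bases before the start of each gene, because the 4 repressors among the 10 genes are known to act through them. RefSeq promoter sequences (GRCm38.p6) were matched for 4 of the 10 genes, Epcam, Vim, Snai1 and Zeb2, and the first 3 have a single start in the table. Those 3 are shown 5′ to 3′ on the plus strand, with E-boxes in capitals. The Epcam window is chr17:87635729-87635978, the Vim window chr2:13574061-13574310 and the Snai1 window chr2:167537945-167538194.
Epcam: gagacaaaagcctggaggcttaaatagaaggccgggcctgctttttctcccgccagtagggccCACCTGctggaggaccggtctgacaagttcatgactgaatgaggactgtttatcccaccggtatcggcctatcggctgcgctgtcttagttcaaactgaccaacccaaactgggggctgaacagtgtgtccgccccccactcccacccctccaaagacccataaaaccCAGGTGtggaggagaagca
Vim: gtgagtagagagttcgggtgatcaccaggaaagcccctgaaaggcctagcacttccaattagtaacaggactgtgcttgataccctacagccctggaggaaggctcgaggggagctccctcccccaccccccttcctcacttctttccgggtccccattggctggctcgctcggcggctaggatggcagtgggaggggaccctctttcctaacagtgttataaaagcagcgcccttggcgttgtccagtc
Snai1: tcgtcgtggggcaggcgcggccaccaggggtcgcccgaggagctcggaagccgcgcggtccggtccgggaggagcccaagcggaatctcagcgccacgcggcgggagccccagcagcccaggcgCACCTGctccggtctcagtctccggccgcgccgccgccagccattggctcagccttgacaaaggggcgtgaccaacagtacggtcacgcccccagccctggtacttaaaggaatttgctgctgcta
The Epcam window held 2 of these E-boxes, a CACCTG that begins 187 bases before the start and a CAGGTG that begins 19 bases before it. The Snai1 window held 1, a CACCTG that begins 126 bases before the start. No match was found in the Vim window or in the 4 Zeb2 windows. Across all 32851 promoter windows of the same length, 17.2% held at least 1 such E-box, so a match is frequent and is only a description of the sequence.

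Relative to the whole library, all 10 genes had a higher level in the Pc4-OE-labelled one, epithelial and mesenchymal genes alike, although Cdh1, Epcam, Vim, Fn1 and Zeb1 were lower beyond counting error relative to the summed fibroblast markers. A gene was called higher or lower when its ratio was at least 2-fold and its interval excluded 1. By this rule 7 of the 10 were higher and 0 were lower, against a background of 11.8% of the 14213 measured genes called higher and 4.02% called lower. The median log2 ratio of the 10 was 1.11, beside -0.01 for all measured genes. The 3 genes that did not reach 2-fold were Cdh1, Epcam and Zeb1. With an assumed coefficient of variation of 0.4 between cultures added to each interval, 0 of the 10 were called. Of the 14213 measured genes, 597 were called higher and 96 lower with that variation. In the same direction the fibroblast markers had 16 of 21 genes called higher (6 with that variation) and 0 lower. The macrophage markers had 15 of 16 called higher (12 with that variation) and 0 lower. The part of either cell type in the ratios of the 10 genes was not tested.

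**Figure D1:**
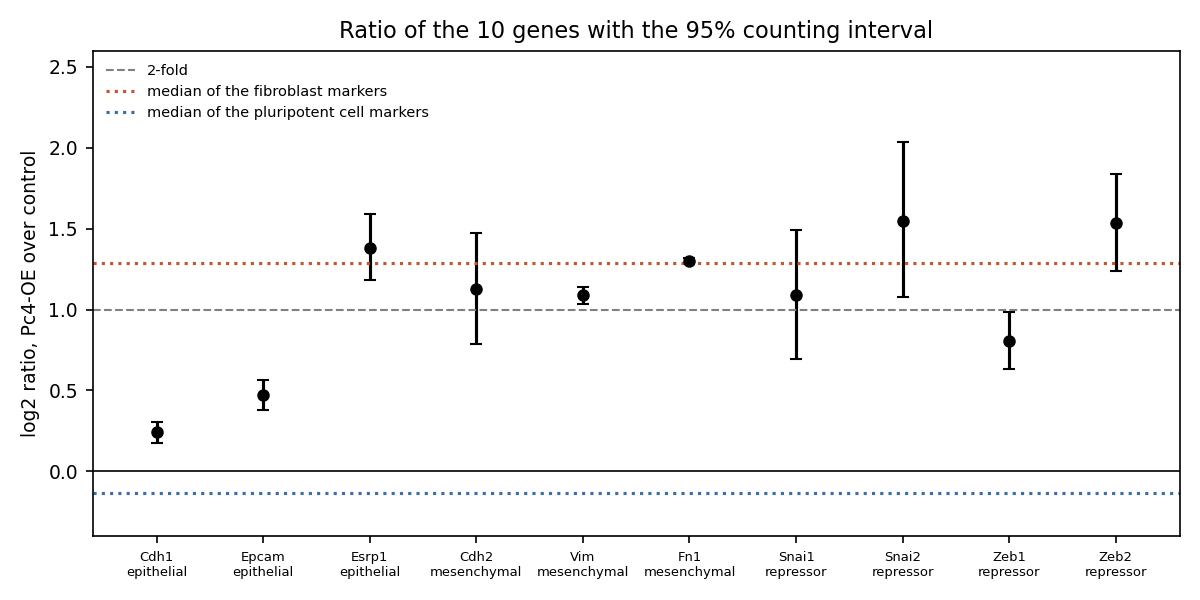
Log2 ratio of scaled CPM, Pc4-OE over control, for each of the 10 genes (points) with its 95% counting interval (bars), 1 library per group. The dashed line marks 2-fold and the dotted lines the medians of the fibroblast markers (1.29) and the pluripotent cell markers (-0.13). Cdh1 and Epcam lie lowest, at 0.24 and 0.47, and Snai2 and Zeb2 highest, at 1.55 and 1.54.

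Among the epithelial genes, the adhesion molecules were close to level between the libraries and the splicing regulator was not. Cdh1 encodes E-cadherin, the calcium-dependent adhesion molecule of epithelia and of embryonic stem cell colonies. It lies on chromosome 8 (106603350 to 106670247, plus strand, GRCm38) and had 3715 counts (356.8 CPM) in the control-labelled library and 4363 counts (421.5 CPM) in the Pc4-OE-labelled library. This is 1.18-fold (interval 1.13 to 1.23), a ratio that exceeds that of 65.4% of all measured genes. Epcam, an adhesion molecule of epithelial and pluripotent cells (chromosome 17, 87635979 to 87651127), was at 158.9 CPM (1655 counts) and 220.3 CPM (2280 counts). Its ratio was 1.39-fold (1.30 to 1.48). Both differences were larger than counting error, and neither reached 2-fold.

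Esrp1 encodes an RNA-binding protein that sets epithelial patterns of alternative splicing, and it stood apart from both adhesion genes. It lies on the minus strand of chromosome 4 (11331933 to 11386783). Esrp1 had 273 counts (26.2 CPM) in the control-labelled library and 708 counts (68.4 CPM) in the Pc4-OE-labelled library, 2.61-fold higher (interval 2.27 to 3.01). Per 100 counts of Cdh1 in the same library there were 7.35 counts of Esrp1 (6.47 to 8.31) in the first and 16.2 (15.0 to 17.6) in the second, a comparison that needs no scaling between libraries. Esrp2, the paralogue with an overlapping role, did not show this difference, with 53 and 57 counts and a log2 ratio of 0.11 (-0.45 to 0.68). The table counts reads per gene, so the splice forms that ESRP proteins control were not measured.

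All 3 mesenchymal structural genes were called higher. Fn1 encodes fibronectin, a matrix glycoprotein that fibroblasts secrete in quantity (chromosome 1, 71585473 to 71653280, minus strand). It had 26939 counts (2587 CPM) in the control-labelled library, more than 99.9% of measured genes there, and 65975 counts (6374 CPM) in the Pc4-OE-labelled library. Its ratio was 2.46-fold (2.43 to 2.50), the most tightly bounded of the 10. Vim encodes vimentin, the intermediate filament protein of mesenchymal cells (chromosome 2, 13574311 to 13582826, plus strand), and went from 442.2 CPM (4605 counts) to 940.3 CPM (9732 counts), 2.13-fold higher (2.05 to 2.20). Cdh2 encodes N-cadherin, which mesenchymal and neural cells carry in place of E-cadherin (chromosome 18, 16588877 to 16809246, minus strand). It was far scarcer, at 10.2 CPM (106 counts) and 22.2 CPM (230 counts), 2.18-fold higher (1.73 to 2.77).

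A switch from E-cadherin to N-cadherin is a common reading of the mesenchymal transition, and the 2 genes were therefore set against each other within each library. There were 2.85 counts of Cdh2 per 100 of Cdh1 (interval 2.33 to 3.46) in the control-labelled library and 5.27 (4.60 to 6.02) in the Pc4-OE-labelled library. The share of Cdh2 was thus 1.85-fold higher in the second, while Cdh1 stayed the far more abundant transcript in both. Vim stood at 124.0 counts per 100 of Cdh1 (118.7 to 129.5) in the first library and at 223.1 (215.2 to 231.2) in the second. The intervals of the 2 libraries did not overlap for either ratio.

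Of the 4 repressors, 3 were called higher, and Zeb1, the one with the most counts in both libraries, was not. Snai1, which encodes SNAIL (chromosome 2, 167538195 to 167542814), had 79 counts (7.59 CPM) in the control-labelled library and 167 counts (16.1 CPM) in the Pc4-OE-labelled library, 2.13-fold higher (1.62 to 2.82). Snai2, which encodes SLUG (chromosome 16, 14705852 to 14709395), had 51 counts (4.90 CPM) and 148 counts (14.3 CPM). Its ratio of 2.92-fold (2.11 to 4.10) was the largest of the 10, and also the one with the widest interval. The intervals of Snai1 and Snai2 overlapped, so the depth does not separate them.

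The ZEB pair was less even. Zeb2 (chromosome 2, 44983512 to 45117442, minus strand) had 127 counts (12.2 CPM) and 366 counts (35.4 CPM), 2.90-fold higher (2.36 to 3.58). Zeb1 (chromosome 18, 5591327 to 5775468) had 423 counts (40.6 CPM) and 736 counts (71.1 CPM), a ratio of 1.75-fold (1.55 to 1.98) that did not reach 2-fold. The intervals of Zeb1 and Zeb2 did not overlap, and the number of Zeb1 counts per Zeb2 count went from 3.33 (2.73 to 4.09) in the control-labelled library to 2.01 (1.77 to 2.29) in the Pc4-OE-labelled library. Zeb2 is also expressed by macrophages, whose markers had the largest median named above, and Zeb1 and Zeb2 are both expressed by fibroblasts. The antisense gene Zeb2os, which overlaps Zeb2, had 2 and 4 counts. Snai3, the remaining member of the SNAIL family, named here after its values were seen, had 86 and 204 counts, 2.39-fold higher (1.85 to 3.11).

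Levels were compared between genes only per length, as scaled CPM per kilobase of the longest annotated transcript. In the control-labelled library the order was Fn1 (311.1), Vim (151.1), Cdh1 (80.5), Epcam (77.9), Zeb1 (7.0), Esrp1 (6.79), Snai1 (4.68), Snai2 (2.42), Cdh2 (2.10) and Zeb2 (1.34). Neighbours whose counting intervals overlapped, and whose order is therefore not resolved, were Cdh1 with Epcam, Zeb1 with Esrp1, and Snai2 with Cdh2. In the Pc4-OE-labelled library the upper end read Fn1 (766.6), Vim (321.4), Epcam (108.0) and Cdh1 (95.2), and Esrp1 (17.7) stood above Zeb1 (12.3). Snai1 with Zeb1 and Cdh2 with Zeb2 were not resolved there. Both exchanges, of Epcam with Cdh1 and of Esrp1 with Zeb1, had intervals that did not overlap in this second library. The longest Vim transcript in GENCODE M21 is a retained intron form, and per kilobase of the longest coding transcript Vim stood at 201.7 and 428.8, in the same place in the order. Neither exchange was seen per mean transcript length, where Epcam stood above Cdh1 (135.4 and 127.1 under the control label) and Zeb1 above Esrp1 (41.0 and 24.0 under the Pc4-OE label) in both libraries, so the order of these genes depends on the transcript length used. Zeb2 was then in place 7 of the order rather than 10.

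**Figure D2:**
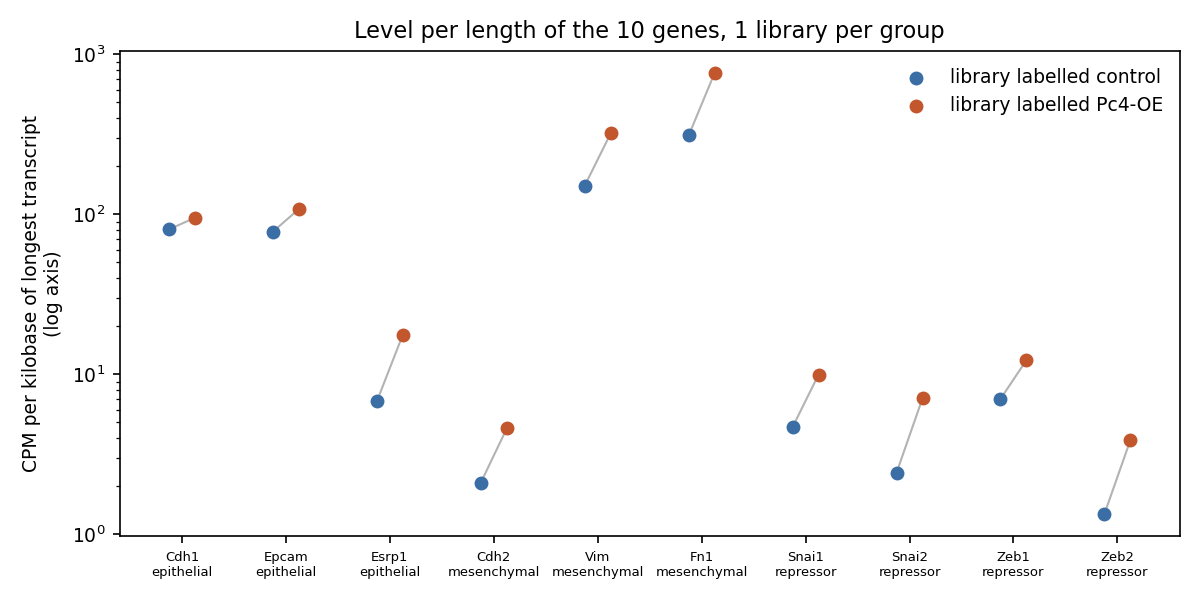
Level of each of the 10 genes as scaled CPM per kilobase of its longest transcript (log axis) in the control-labelled library and the Pc4-OE-labelled library, joined by a line; 1 library per group, so no error bar between cultures is drawn. Fn1 and Vim stand highest in both libraries, Cdh1 and Epcam follow, and the repressors, Esrp1 and Cdh2 lie below 20 CPM per kilobase.

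Because the feeder cells are fibroblasts, each gene was also set against the summed counts of the 21 fibroblast markers within its own library. This divides each ratio above by the ratio of the marker sum, 2.59, so it restates those ratios against another reference. Fn1 stood at 53.2 counts per 100 fibroblast marker counts in the control-labelled library and at 50.6 in the Pc4-OE-labelled library, and Vim at 9.09 (8.82 to 9.37) and 7.47 (7.31 to 7.62). Both were thus slightly lower against the marker sum, where against the whole library they were more than 2-fold higher. Col1a1 alone, a collagen gene among those 21 markers, was itself 2.10-fold higher, close to Vim. Against it, Vim was at 60.4 (58.2 to 62.6) and 61.2 (59.7 to 62.8) per 100, which did not differ beyond counting error. The outcome depends on the marker taken, since the 21 ranged from 1.59-fold (Col3a1) to 5.81-fold (Acta2) higher. Fn1 was higher against Col1a1, at 353.2 (344.3 to 362.3) and 415.0 (407.9 to 422.3) per 100, so its direction depended on which fibroblast reference was used. Against the summed markers, Cdh2, Snai1, Snai2, Zeb2 and Esrp1 also had overlapping intervals between the libraries. Zeb1 was lower, at 0.835 (0.757 to 0.919) and 0.565 (0.525 to 0.607), as were Cdh1, at 7.33 and 3.35, and Epcam, at 3.27 and 1.75.

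Against the summed counts of the 10 pluripotent cell markers, all 10 genes were higher in the Pc4-OE-labelled library. This follows from the values above, as every gene had a ratio above 1 and the marker sum a ratio of 0.79. Cdh1 went from 5.80 (5.61 to 6.00) to 8.64 (8.38 to 8.92) per 100 marker counts, and Epcam from 2.59 to 4.52. Esrp1 went from 0.427 (0.377 to 0.480) to 1.40 (1.30 to 1.51), 3.29-fold. This sum is led by Tdgf1, Pou5f1 and Dppa5a. Tdgf1 and Pou5f1 were lower in the Pc4-OE-labelled library, at log2 ratios of -0.69 and -0.93, and Dppa5a was near level, at 0.07. The direction for Cdh1, Epcam, Vim, Fn1 and Zeb1 therefore depended on which marker sum was the reference.

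**Figure D3:**
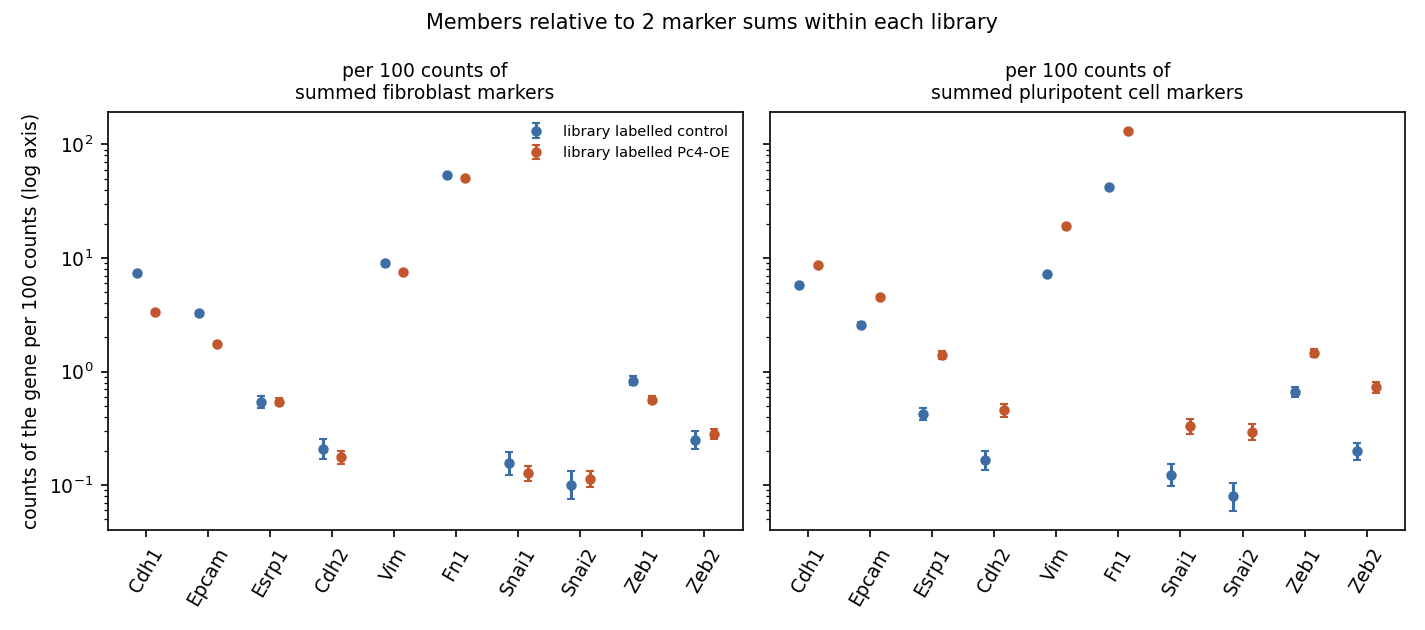
Counts of each gene per 100 summed counts of fibroblast markers (left) and of pluripotent cell markers (right), on a log axis, in the control-labelled library and the Pc4-OE-labelled library, with 95% counting intervals. On the left Cdh1 is at 7.33 and 3.35 and Esrp1 at 0.539 and 0.543, while on the right every gene is higher in the Pc4-OE-labelled library.

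Other epithelial genes were spread more widely than these 3. Of 26 measured, 11 were called higher and 0 lower, beside 11.8% and 4.02% of all measured genes. The median log2 ratio of the 26 was 0.70, beside -0.01 for all genes. With the assumed variation of 0.4 between cultures, 3 of the 26 were called higher, beside 597 of all 14213 measured genes. The same 597 is the background for that count in each list below. Dsp, which encodes the desmosomal linker desmoplakin, was 5.31-fold higher (interval 4.06 to 7.05, 64 and 338 counts). The tight junction claudins Cldn7 and Cldn4 were 4.63-fold (3.43 to 6.36) and 3.35-fold (3.01 to 3.73) higher. Elf3, an epithelial ETS factor, went from 49.2 to 124.3 CPM, 2.53-fold higher, and Grhl2, a grainyhead factor that activates Cdh1 and opposes Zeb1, from 19.7 to 46.5 CPM, 2.36-fold higher (2.00 to 2.79). The other 6 called higher were Cldn6, St14, Ap1m2, Rab25, Krt18 and Crb3. On the other side of a ratio of 1 stood 5 genes, among them Ocln, the tight junction protein occludin, at a log2 ratio of -0.49 (-0.93 to -0.07), and Lsr, of tricellular junctions, at -0.49 (-0.70 to -0.29).

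Trophoblast markers, which share an epithelial programme with several of these genes, were higher too. All 4 measured were called higher (3 with the assumed variation), beside 11.8% of all measured genes. The remaining 3, Cdx2, Elf5 and Hand1, had too few counts to be measured. The keratin gene Krt7 had 15 and 87 counts (5.84-fold, 3.35 to 10.9), and Tfap2c, an AP-2 factor, 519 and 1346 counts (2.61-fold, 2.36 to 2.89). The 7 trophoblast markers summed to 53.6 CPM and 147.3 CPM in the control-labelled and the Pc4-OE-labelled library, with Cdx2 at 3 counts in the first and at 0 in the second. The part of such cells in the epithelial ratios was not tested.

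Other mesenchymal genes were nearly uniform. Of 22 measured, 18 were called higher, beside 11.8% of all measured genes, and 0 lower, with a median log2 ratio of 1.58. Under the assumed variation 10 were called. The smooth muscle genes Acta2 and Tagln were 5.81-fold (4.74 to 7.17) and 4.42-fold (3.66 to 5.36) higher, and the matrix protease gene Mmp2 4.16-fold. Of the 22, 9 are also on the list of fibroblast markers, and of the other 13, 11 were higher with a median of 1.77. Vim, Cdh2 and Snai1 had smaller log2 ratios (1.09, 1.13 and 1.09) than the median of either list.

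The adhesion partners of the cadherins lay mostly near level. On the list of catenins and nectins, which also holds Vcl, Tjp1 and Mllt4, 1 of 12 genes was called higher and 0 lower. This is near the shares of all measured genes, 11.8% and 4.02%. The median log2 ratio of the list was 0.04. Vcl, which encodes vinculin, was 1.64-fold higher (1.54 to 1.74) and was not called. Ctnnb1, beta-catenin, was at 891.0 and 912.5 CPM (log2 ratio 0.03, -0.01 to 0.08), and Ctnnd1, p120-catenin, which holds cadherins at the membrane, at 301.7 and 412.3 CPM (1.37-fold). The 1 called was Ctnna2, the neural alpha-catenin, on 5 and 35 counts (7.04-fold, 2.75 to 23.0). Among 8 measured cadherins outside the 10 genes, Cdh11 of fibroblasts was 2.87-fold higher (2.61 to 3.16) and Cdh13 was higher on 5 and 26 counts. Cdh4 was lower at a log2 ratio of -1.27 (75 and 31 counts), and Cdh3, P-cadherin, had a log2 ratio of 0.68. With the assumed variation 1 of these 8 was called higher and 0 lower.

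None of the 7 corepressors through which SNAIL and ZEB proteins act was called. Of these, 6 stood below a ratio of 1, and the median log2 ratio of the 7 was -0.36. Of all measured genes, 49.3% stood above 1, with a median of -0.01. Ctbp2, a corepressor of ZEB proteins, was at 345.0 and 224.5 CPM (log2 ratio -0.62, -0.70 to -0.54). Its paralogue Ctbp1 had a log2 ratio of -0.23 (-0.39 to -0.08). Hdac1 and Hdac2, the histone deacetylases of these complexes, had log2 ratios of -0.46 and -0.41. Among splicing regulators outside Esrp1, the median was -0.09. Of the 10, 1 was called higher and 0 lower, near the 11.8% and 4.02% of all measured genes. The 1 was Mbnl2, at 93.7 and 204.8 CPM (2.19-fold, 2.02 to 2.36), and 0 were called with the assumed variation.

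Transforming growth factor beta is the best-studied inducer of SNAIL and ZEB genes. Its 3 ligand genes and 2 of its receptor genes were called higher and its SMAD genes were not. Of 12 genes, 5 were called higher, beside 11.8% of all measured genes, and 0 lower, with a median log2 ratio of 0.14. Under the assumed variation 2 were called. The ligand genes Tgfb1 and Tgfb2 were 2.70-fold (91 and 244 counts) and 3.74-fold (18 and 67 counts) higher, and Tgfb3 2.42-fold. The receptors Tgfbr3 and Tgfbr2 were 3.80-fold (3.42 to 4.23) and 2.78-fold (2.48 to 3.11) higher, while Tgfbr1 had a log2 ratio of 0.01. Smad7, an inhibitor that the pathway itself induces, was at 125.8 and 74.9 CPM, a log2 ratio of -0.75 (-0.88 to -0.62) that did not reach 2-fold.

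Partners of the 2 abundant mesenchymal proteins were compared last. Of 6 fibronectin receptors, 3 were called higher, beside 11.8% of all measured genes, and 0 lower. All 6 had a ratio above 1, and with the assumed variation 1 was called. Itga4 was 5.24-fold higher (4.29 to 6.44, 117 and 609 counts), the proteoglycan gene Sdc4 2.61-fold and Itgb3 2.53-fold, while Itgb1, the common beta chain, had a log2 ratio of 0.90. Of 6 measured intermediate filament genes and linkers other than Vim, none met the rule in either direction and the median was 0.52. Plec, which links vimentin to the cytoskeleton, had a log2 ratio of 0.63, and Lmnb1, a nuclear lamin, one of -0.74.

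Markers of the primitive endoderm and the primitive streak, where these genes also act in the embryo, differed from each other. Of 9 measured primitive endoderm markers, 6 were called higher, beside 11.8% of all measured genes, and 0 lower. With the assumed variation 2 were called. Their median was 1.30, with sums of 702.2 and 1705 CPM. The leading genes were Thbd (4.51-fold), Dab2 (3.84-fold) and the basement membrane collagens Col4a2 and Col4a1 (2.97-fold and 2.66-fold). The part of fibroblasts and macrophages, whose markers had medians of 1.29 and 2.20, in these ratios was not tested. Among the transcription factors of the list, Gata4 was called higher on 23 and 46 counts, and Sox17 had 2 and 9 counts. Gata6, Sox7 and Lama1 were not called, at log2 ratios of 0.50 (-0.11 to 1.14), 0.79 and 0.19. Of 8 primitive streak and mesoderm markers only 3 had enough counts, and none of those met the rule, with Eomes at a log2 ratio of -0.91 (-1.31 to -0.52). Together the 8 summed to 22.5 CPM under the control label and 13.6 CPM under the other, with Mesp1 at 0 in both and Gsc at 0 in the first.

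**Figure D4:**
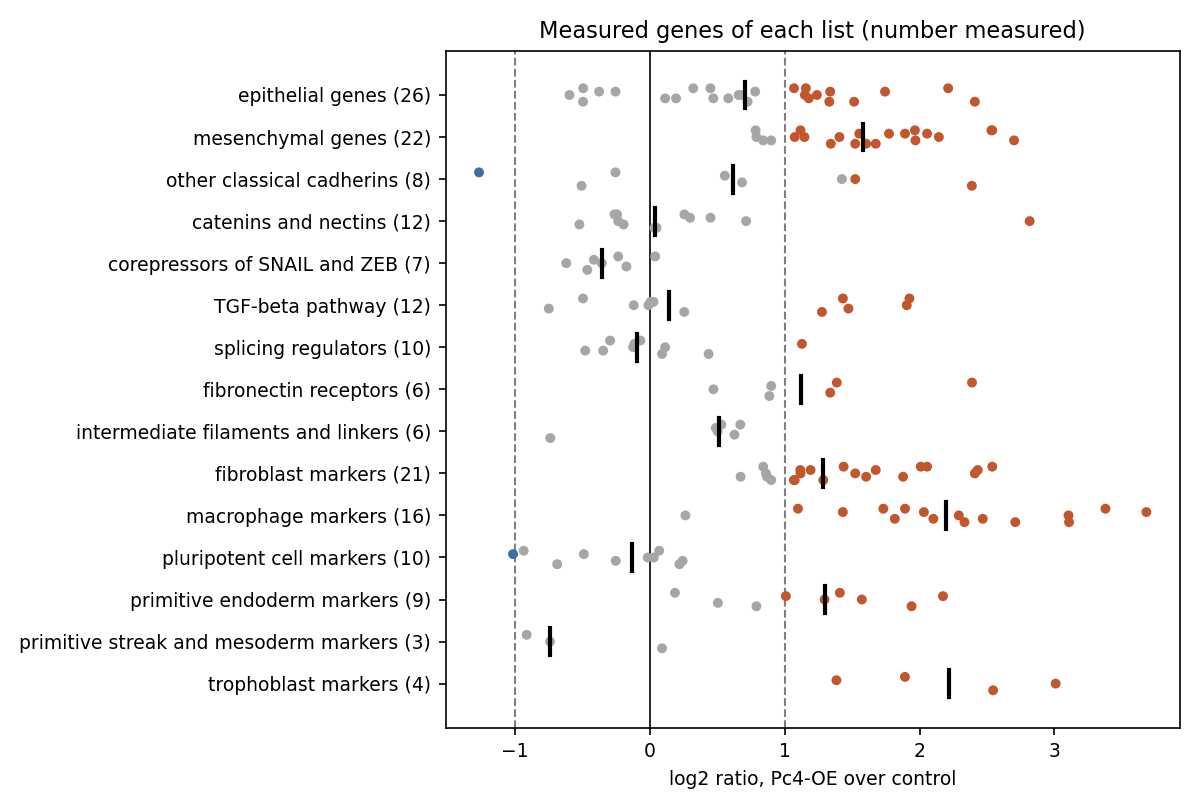
Log2 ratios of the measured genes of each list (points; orange, at least 2-fold higher with an interval that excludes 1; blue, at least 2-fold lower; grey, neither) and their median (black bar), with the number measured in brackets and dashed lines at 2-fold, 1 library per group. The mesenchymal, fibroblast, macrophage, primitive endoderm and trophoblast lists lie mostly above 2-fold, the epithelial genes spread from -0.60 to 2.41, the corepressors lie near or below 0, and the catenins and nectins lie within 2-fold except Ctnna2 at 2.82.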

How the data were processed

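The data are whole-number read counts per gene deposited by the authors, 1 column per library. STAR 2.4.1c and featureCounts were used on mm10, per the submitters' processing notes. Not given in the sources used here are the annotation, the strand setting and the handling of reads with several matches, so antisense and overlapping genes may share reads. Counts were scaled to CPM with TMM factors (trimmed mean of M values) from edgeR 4.0.16. The ratio was Pc4-OE over control, without a pseudocount, for the 14213 genes with at least 20 summed counts. Intervals (scipy 1.17.1) are exact binomial. The steps were tested on simulated data that held counting error only, with no spread between cultures. Locations are from RefSeq and transcript lengths from GENCODE M21, both GRCm38.

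The 10 genes and all 15 lists were chosen with earlier results of these data known. From each list up to 4 genes were named, by the interval bound farthest from 1, and markers were named to describe a list. A list member is not reported here by name. Snai3, Esrp2, Grhl2, the other epithelial genes, Ctnnb1, Ctbp1, Col1a1, Col3a1, Tgfb3, Tgfbr1 and Smad7 fall outside that rule. They were chosen with their values seen. The alternatives were other scalings, a pseudocount, other count minimums, a widened interval and other transcript lengths.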

Additional observations from a re-analysis of the deposited data

How the results depend on the processing

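Each of the 10 genes kept a ratio above 1 under all 5 alternatives that apply to it: library totals, median-of-ratios and upper quartile scaling, a pseudocount of 0.5 CPM and a widened interval. In 49 of these 50 values the log2 ratio lay within its counting interval, and the exception was Fn1, at 1.34 with library totals. The widened interval leaves the ratio itself as it was, so its values were fixed in advance. The count of 7 genes called higher did not change with the scaling or the pseudocount. The count minimum could not change it, since each of the 10 had more than 100 summed counts. With an assumed coefficient of variation of 0.4 between cultures added to the interval, it was 0 of 10, and over all genes 597 were higher and 96 lower, since 1 library per group leaves such spread unmeasured. With a minimum of 100 summed counts, 1095 genes were higher and 366 lower, as fewer genes were tested. The scalings moved the median log2 ratio of all genes to between -0.02 and 0.03. Lin28a alone carried the call of 1 lower gene among the pluripotent cell markers, which was 0 with library totals. No replicate could be left out, and no paired analysis was possible because each group has 1 library. Depth limits Snai1, Snai2 and Cdh2 most.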

Other observations

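The genes nearest to Cdh1 and Vim in their ratio were taken among named genes of a similar mean CPM, over 2 libraries, as a description only. For Cdh1 (266 candidates) they were Nanog, Ogt and Rpl22, with log2 ratios of 0.24, 0.23 and 0.23. For Vim (85 candidates) they were Postn, Fth1 and Ctsd, with log2 ratios of 1.07, 1.05 and 1.22. Postn encodes the matrix protein periostin and is on the fibroblast list, and Ctsd encodes a lysosomal protease.

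Rows for the hairpins of the miR-200 family, whose mature forms are known to repress Zeb1 and Zeb2, numbered 5 and held 0 counts in the control-labelled library and 1 in the other. These poly(A) libraries do not measure mature microRNAs.

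A second motif, TGANTCA, the sequence that AP-1 factors bind, was looked for in the same 250 bases. It was present in 6.75% of promoter windows, and among the windows of the 4 genes searched (Epcam, Vim, Snai1 and Zeb2) only in the Zeb2 window that starts latest in the gene. There it matched as TGAGTCA and TGACTCA, 189 and 132 bases before that start. The 650 measured genes with the motif in a window had a median log2 ratio of 0.21, beside -0.03 for the 10575 without it. For the E-box the medians were 0.02 over 2141 genes with it and -0.02 over 9084 without it. Genes are not independent replicates and no test was made of either difference.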
